A study of Canis lupus familiaris with 8 samples.

Results

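Interferon-stimulated genes were examined in strained and unstrained MDCK GII monolayers, an epithelial line from dog kidney. The genes were a list of 40 symbols, drawn up to ask whether the lower level of IFIT2 after strain was shared by other genes that interferon induces. Of the 40 symbols, 38 had a row among the 37952 genes of the count table, and IFIT1 and SAMD9 were not analysed here. Of the 38 genes, 36 had enough counts to be tested, and the remaining 2 were PSMB8 and XAF1.

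Each group had 4 wells of a single cell line, numbered 1 to 4. Control wells stayed unstrained on a collagen-coated silicone membrane. In stretch wells, vacuum drew the membrane around a pillar and held the monolayer at 18% strain, equal in both in-plane directions, for 2 hours. No well received interferon or a virus, and the labels call the wells technical replicates, so every p-value measures the spread between wells of 1 culture line and not between animals. PolyA-selected, strand-specific libraries held 27047358 to 32478887 counts per well. Levels are given as CPM, read counts scaled to the library total with TMM factors, which correct for library composition.

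Type I and type III interferons signal through cell-surface receptors to the kinases JAK1 and TYK2, which activate STAT transcription factors. These join IRF9 to form ISGF3, the complex that binds interferon response elements and switches on genes for antiviral proteins. Epithelial cells also keep many of these genes on at a low level without infection, and several of the products (STAT2, IRF7, IRF9) are themselves parts of the pathway.

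The labelled cell type was checked against its markers. All 7 kidney epithelial markers, among them CDH1, EPCAM and KRT8, were tested genes, with a summed level of 4634 to 5208 CPM in control wells and 4890 to 5029 CPM in stretch wells. Leukocyte markers summed to 0.622 to 0.734 CPM in control wells and 0.481 to 1.05 CPM in stretch wells, and PTPRC, CD3E, LCP1 and ITGAM had 0 counts in every well. Markers of plasmacytoid dendritic cells and fibroblasts summed to at most 0.155 CPM in any well, and those of endothelium to at most 0.755 CPM. Of the interferon genes looked up, IFNB1, IFNL1, IFNL3 and IFNG had 0 counts in every well, while IFNK and IFNE had counts in every well. Interferon alpha genes were not looked up. IFNK had 1.64 ± 0.591 CPM in control wells and 1.51 ± 0.242 CPM in stretch wells, and overlaps MOB3B on the opposite strand. IFNE had 35, 68, 39 and 38 counts in control wells and 21, 33, 50 and 50 counts in stretch wells. A count of 0 allows up to 3 counts, or 0.0931 to 0.111 CPM depending on the well, counting error only.

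Many of the listed genes were strongly expressed before any strain. Per kilobase of exon, 30 of the 36 tested genes lay above the median of all 14571 tested genes (8.59 CPM per kb in control wells), and 8 were in the top 10 percent. ISG15, the ubiquitin-like protein that is attached to other proteins during an antiviral response, was highest at 178 ± 14.1 CPM per kb (mean ± SD, n = 4), above 96.7% of tested genes. SAMD9L, an inhibitor of translation, followed at 117 ± 10.8 CPM per kb, which is a difference from ISG15 larger than either SD. OAS2, a sensor of double-stranded RNA, stood at 101 ± 3.10 CPM per kb and BST2, which tethers budding virions, at 88.0 ± 9.58 CPM per kb. SAMD9L and OAS2 differed by more than the SD of each, and OAS2 and BST2 likewise.

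IFIT2 was near the other end of this order. Its level of 2.65 ± 0.329 CPM per kb in control wells was above that of 27.8% of tested genes. MX2 at 2.86 ± 0.548 CPM per kb did not differ from IFIT2 beyond the spread of the wells, and only HERC5 was lower among the tested genes, at 1.23 ± 0.0793 CPM per kb. PSMB8, a subunit of the immunoproteasome, had 1 to 11 counts per well, whereas its neighbours PSMB9 and TAP1 stood at 27.7 ± 2.95 and 18.9 ± 1.27 CPM per kb. XAF1 had 0 counts in all 8 wells.

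**Figure D1:**
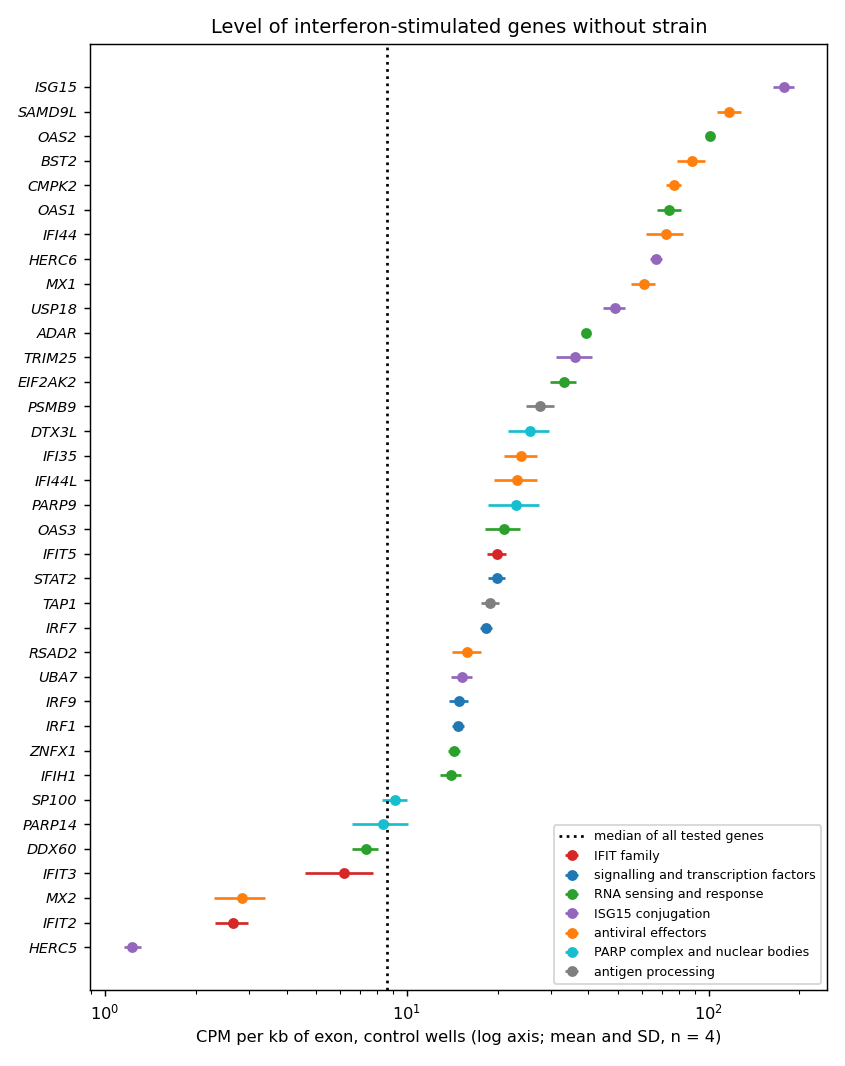
Levels of the 36 tested interferon-stimulated genes in control wells, in CPM per kilobase of exon on a log axis (points: mean of 4 wells; bars: SD), coloured by role, with the median of all tested genes as a dotted line. ISG15 is highest at 178 CPM per kb, and IFIT2 (2.65), MX2 (2.86) and HERC5 (1.23) are at the low end.

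After strain, most of the listed genes had somewhat lower levels, with smaller estimates than that of IFIT2. Without a block, 30 of 36 had a log2 change below 0, against 51.8% of all tested genes, and their median log2 change was -0.12, against -0.0032 over all genes. In this fit no gene of the whole table passed, so 0 of the 36 passed against a background of 0% (edgeR quasi-likelihood test, Benjamini-Hochberg; smallest adjusted p of a listed gene 0.271). Unadjusted p-values were under 0.05 for 579 genes of the table. Of the listed genes 2 were lower at that level (background 1.76%) and 1 was higher (background 2.22%).

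Wells with the same number deviated together from their group means, so the replicate number was also fitted as a block. With it, IFIT2 and DTX3L fell (edgeR, adjusted p = 0.00617 and 0.0208). Since IFIT2 chose the list, the count to read is DTX3L, 1 of the other 35 genes, where 0.172% of all genes were called lower. IFIT2 is among the lower genes in each of the other counts given here. At an unadjusted p under 0.05 in the same fit, 14 listed genes were lower against a background of 3.90%, and 1 was higher against 4.99%. The pairs are the same wells and gave a similar picture. Of the 36, 14 were lower in 4 of 4 same-numbered pairs, where 7.84% of all genes were. Higher in 4 of 4 was 1 gene, where 8.45% of all genes were. Some differences were small, with log2 ratios in pair 4 of -0.0014 for HERC6 and -0.0037 for IFI44. The median log2 change with the block was -0.12, against -0.0022 over all genes. With the block and no filter on low counts, 12 of the listed genes passed, where 2.04% of all genes did. Of these 12, only IFIT2 and DTX3L passed with the filter. The others included OAS1, ISG15 and MX1 (edgeR with the filter, adjusted p = 0.793, 0.899 and 0.863), and ISG15 and MX1 were lower in 3 of 4 pairs. For ISG15 the log2 change was -0.18 in both fits, while edgeR without the filter gave adjusted p = 0.00946. The count of 12 thus depended on the filter.

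**Figure D2:**
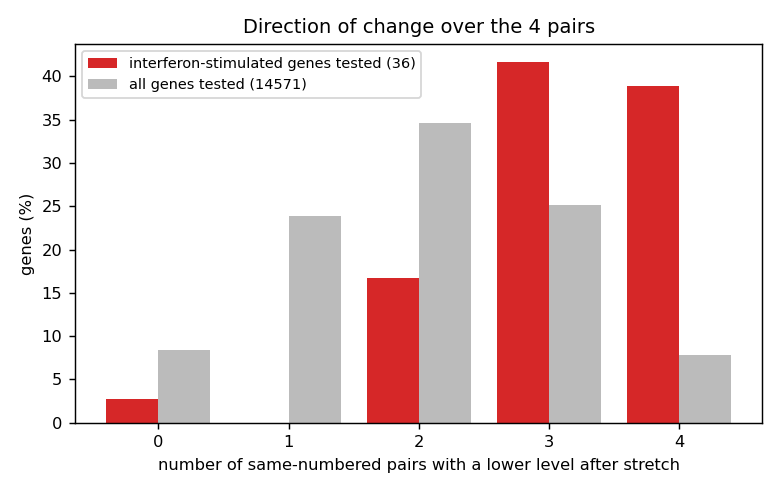
Share of genes, in percent, by the number of same-numbered pairs (0 to 4) in which the stretch well was lower than its control well, for the 36 tested interferon-stimulated genes (red) and all 14571 tested genes (grey). Among the listed genes 15 were lower in 3 pairs and 14 in 4, and 1 was lower in none.

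The size of the shift depended on 1 well, stretch replicate 3, whose total of 28912414 counts was within the range of the others. The median log2 ratio of stretch to control over the 36 genes was -0.07 in pair 1, -0.01 in pair 2, -0.32 in pair 3 and -0.06 in pair 4, while over all tested genes it lay between -0.0074 and 0.0043. Stretch replicate 3 was the lowest of the 8 wells for 25 of the 36 genes, against 16.2% of all genes, a count made after its values were seen. Without stretch replicate 3 the median log2 change was -0.06 and 28 of 36 were lower in edgeR without the block. Without both wells of pair 3 it was -0.05 with the block, and 15 of 36 genes were lower in the 3 remaining pairs against 13.9% of all genes. The summed level of the 38 genes ranged from 3631 to 4177 CPM in control wells and from 3072 (replicate 3) to 4040 CPM in stretch wells, and the groups overlapped. Fewer cells that express these genes and less RNA per cell cannot be told apart in such bulk libraries.

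The wells also differed by number in both groups. For 16 of the 36 genes, replicates 1 and 2 of both groups lay above replicates 3 and 4 of both groups, a pattern of 9.93% of all genes, and this too was counted after the values were seen. The labels name no batch behind the numbers.

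**Figure D3:**
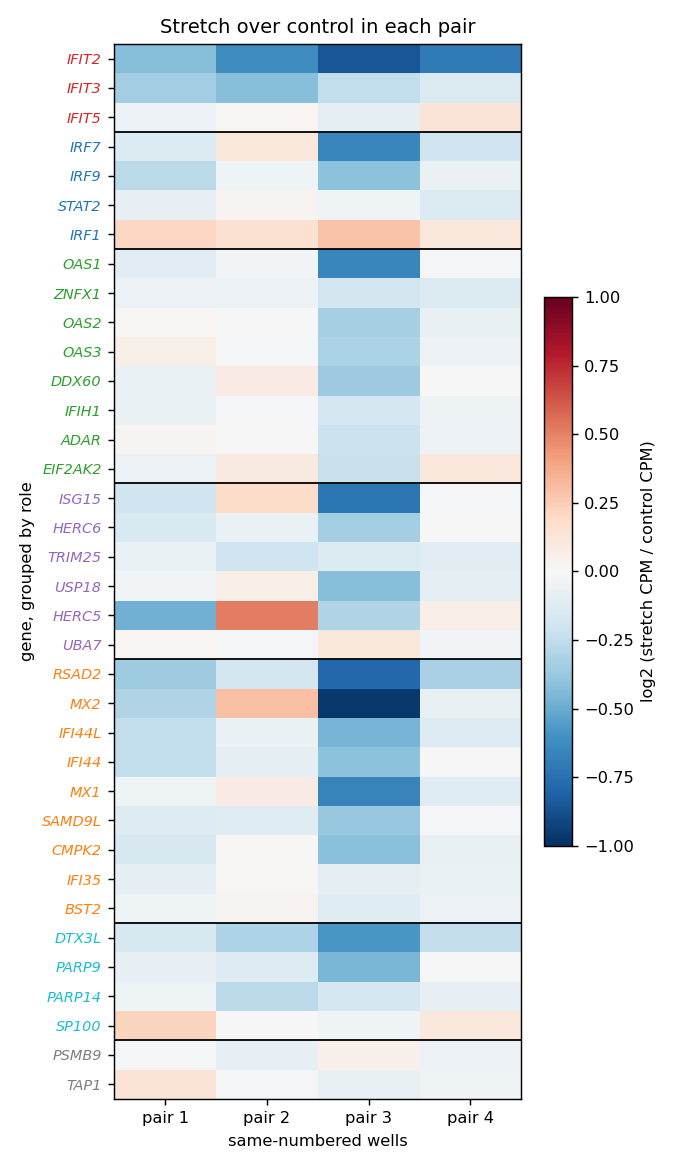
Log2 ratio of stretch CPM to control CPM in each same-numbered pair (columns) for the 36 tested genes (rows, grouped and coloured by role); blue is lower and red is higher after stretch. Pair 3 has the lowest median, -0.32, IFIT2 is lower in every pair and IRF1 higher in every pair.

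The IFIT genes encode proteins with tetratricopeptide repeats that bind viral RNA or limit its translation. IFIT2 lies on chromosome 4 (380558 to 389253, plus strand). It had 7.78, 10.6, 9.11 and 9.55 CPM in control replicates 1 to 4 and 5.80, 6.87, 5.04 and 5.83 CPM in stretch replicates 1 to 4. Every stretch well was below every control well, which held for 1 of the 36 genes and for 1.24% of all genes. Its log2 change was -0.65 ± 0.13 (SE) unblocked and -0.65 ± 0.11 blocked, and edgeR gave adjusted p = 0.271 for the first and 0.00617 for the second. The list was built around this decrease, so it is a description and not an independent result. Without pair 4, the adjusted p of IFIT2 with the block was 0.0675, and no listed gene passed.

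IFIT3 follows IFIT2 on the same strand (402330 to 423652). Its control wells had 16.9, 18.2, 10.8 and 11.8 CPM and its stretch wells 13.3, 13.5, 9.12 and 10.7 CPM, so the groups overlapped while each of the 4 pairs was lower. The log2 change was -0.31 ± 0.18 unblocked and -0.30 ± 0.08 blocked, and neither passed (edgeR, adjusted p = 0.999 and 0.158). With 1 well left out, the unblocked change of IFIT3 ranged from -0.42 to -0.18. IFIT5, on chromosome 28 (4475804 to 4487078), had 61.2, 63.5, 71.9 and 64.0 CPM in control wells and 58.9, 64.5, 67.5 and 70.1 CPM in stretch wells, with means of 65.1 ± 4.64 and 65.2 ± 4.82 CPM. Its 95% interval with the block, -0.10 to 0.11 on the log2 scale, did not overlap that of IFIT2, and its sign varied with the wells left out. How reads shared by related IFIT genes were counted is not given in the sources used here.

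Beyond IFIT3 the table lists further genes on the plus strand of chromosome 4 before ZNF248, none of them listed under these symbols, and they were looked at after the IFIT values were known. LOC606817 (433475 to 437592), which the annotation gives as protein-coding, went from 1.86 ± 0.631 to 1.28 ± 0.508 CPM and was lower in 4 of 4 pairs. LOC488947 (443560 to 450587), also protein-coding, went from 4.42 ± 0.844 to 3.34 ± 1.56 CPM and was lower in 3 of 4 pairs. In edgeR's blocked fit neither passed (adjusted p = 0.425 and 0.355). Whether any of these corresponds to IFIT1, which has no row under that symbol, could not be settled from the files. LOC606849 (455314 to 458995) had at most 4 counts per well and was not tested. ZNF248, the next gene on the opposite strand, had 17.4 ± 1.75 and 18.1 ± 2.75 CPM.

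**Figure D4:**
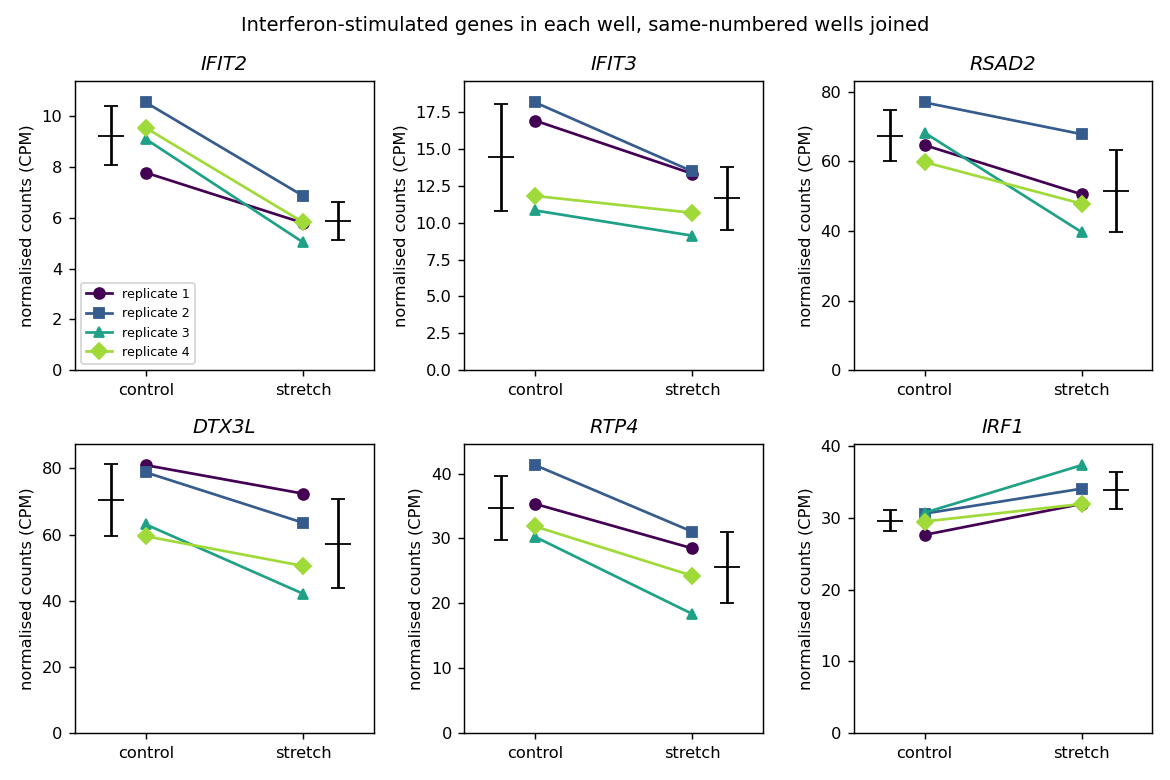
Normalised counts (CPM) of 6 genes in each of the 8 wells, with same-numbered wells joined and the mean ± SD of 4 wells in black beside each group; every axis starts at 0. IFIT2 and IRF1 have no overlap between the groups, in opposite directions, while IFIT3, RSAD2, DTX3L and RTP4 are lower in each of the 4 pairs with overlapping groups.

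Of the 4 signalling and transcription factor genes, 3 had a log2 change below 0 and IRF1 one above it, and none passed in either fit. IRF1, a factor that acts early after interferon gamma and other stimuli, lies on chromosome 11 (20768242 to 20775474). It had 27.6, 30.6, 30.7 and 29.5 CPM in control wells and 32.0, 34.1, 37.4 and 32.0 CPM in stretch wells. Every stretch well was above every control well, which held for 1 of the 36 genes and for 1.30% of all genes. Its log2 change was 0.19 ± 0.07 unblocked and 0.19 ± 0.06 blocked, which missed the threshold (edgeR, adjusted p = 0.999 and 0.178). The gene overlaps RAD50 on the opposite strand. In all, 9 listed genes overlap a gene of the other strand, and reads of such partners can be told apart only if counting used strand, a setting not given in the sources used here.

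IRF9, the DNA-binding part of ISGF3, was lower in 4 of 4 pairs, with 29.9 ± 2.24 CPM in control wells and 26.2 ± 3.61 CPM in stretch wells. Its log2 change of -0.20 with the block did not pass (edgeR, adjusted p = 0.303). IRF7, which drives interferon genes, went from 29.2 ± 1.34 to 25.6 ± 6.14 CPM. Stretch replicate 3 was the lowest well at 18.5 CPM, against 24.0 to 33.3 CPM in the other wells of its group. STAT2 had 82.5 ± 5.16 and 79.3 ± 7.32 CPM, a difference smaller than either SD.

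The genes that sense or answer foreign RNA were all below 0 on the log2 scale, 8 of 8, from -0.18 to -0.02 without the block, and none passed in either fit. Of these, OAS1, IFIH1 (the sensor MDA5) and ZNFX1 were lower in 4 of 4 pairs. OAS2, the most abundant of them per length, had 228, 228, 239 and 223 CPM in control wells and 231, 228, 191 and 212 CPM in stretch wells, so stretch replicates 1 and 2 were level with the controls and replicates 3 and 4 below them. Its log2 change with the block was -0.10 ± 0.05 (edgeR, adjusted p = 0.676), and ranged from -0.13 to -0.02 with 1 replicate number left out. For the kinase EIF2AK2 (PKR) and the RNA editing enzyme ADAR, the log2 changes with the block were -0.02 and -0.06, and the 95% intervals reached no lower than -0.15. DDX60 and OAS3 stood at 45.4 ± 4.52 and 70.4 ± 9.43 CPM in control wells and at 42.8 ± 3.54 and 65.9 ± 1.54 CPM in stretch wells.

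The ISG15 conjugation system consists of the modifier, its activating enzyme UBA7, ligases such as HERC5, HERC6 and TRIM25, and USP18, which removes ISG15 and restrains the interferon receptor. ISG15 on chromosome 5 (56712681 to 56713834) had 130, 129, 138 and 113 CPM in control wells and 113, 147, 83.3 and 113 CPM in stretch wells. The stretch wells thus lay on both sides of the controls, and the 95% interval of the log2 change with the block, -0.73 to 0.36, was wide enough to hold the change of IFIT2. HERC6 on chromosome 32 (28204467 to 28260972) had 256, 266, 284 and 277 CPM in control wells and 230, 254, 224 and 276 CPM in stretch wells. It was lower in 4 of 4 pairs, with a log2 change of -0.14 ± 0.06 unblocked and -0.14 ± 0.05 blocked (edgeR, adjusted p = 0.999 and 0.308). With 1 replicate number left out, the blocked change of HERC6 ranged from -0.19 to -0.08. TRIM25 was lower in 4 of 4 pairs as well, with a log2 change of -0.13 with the block, and UBA7, HERC5 and USP18 were not. None of the 6 genes passed in either fit.

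Among the antiviral effectors, 9 of 9 tested genes had a log2 change below 0, from -0.39 to -0.05 without the block, and none passed in either fit. RSAD2 (viperin), which makes a chain-terminating nucleotide, had the lowest change of the 9. It lies on chromosome 17 (4500286 to 4520826) and had 64.7, 76.9, 68.2 and 59.8 CPM in control wells and 50.5, 67.8, 39.6 and 47.8 CPM in stretch wells. Stretch replicate 2 was within the range of the controls, and the other stretch wells were below all of them. The log2 change was -0.39 ± 0.15 unblocked and -0.41 ± 0.09 blocked (edgeR, adjusted p = 0.999 and 0.107). RSAD2 passed with the block when pair 3 was left out (adjusted p = 0.00432, log2 change -0.29) and when pair 2 was (adjusted p = 0.0247). It overlaps 1 gene on the opposite strand, LOC119877147.

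CMPK2, the nucleotide kinase gene next to RSAD2 on the other strand, supplies the substrate of viperin. It had 217 ± 12.2 CPM in control wells and 196 ± 30.7 CPM in stretch wells, a log2 change with the block of -0.16 that missed the threshold (edgeR, adjusted p = 0.425). The 95% intervals of these neighbours, -0.61 to -0.21 for RSAD2 and -0.29 to -0.03 for CMPK2, overlapped. The adjacent genes IFI44 and IFI44L on chromosome 6 were each lower in 4 of 4 pairs, with log2 changes of -0.19 and -0.22 with the block (edgeR, adjusted p = 0.308 and 0.115).

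SAMD9L on chromosome 14 (18597720 to 18619223) was also lower in 4 of 4 pairs. Its control wells had 664, 675, 588 and 558 CPM and its stretch wells 606, 620, 453 and 553 CPM, and the groups overlapped. Its log2 change was -0.16 ± 0.10 unblocked and -0.16 ± 0.05 blocked (edgeR, adjusted p = 0.999 and 0.249). With 1 well left out, the unblocked change ranged from -0.21 to -0.07, with -0.07 when stretch replicate 3 was omitted. BST2 on chromosome 20 (45793007 to 45797236) had 137, 146, 175 and 147 CPM in control wells and 133, 149, 161 and 141 CPM in stretch wells, which overlapped throughout. The GTPase genes MX1 and MX2 were lower in 3 of 4 pairs and higher in pair 2, and their 95% intervals with the block, -0.62 to 0.25 and -0.64 to 0.14, held 0. IFI35 had 29.3 ± 3.68 and 28.1 ± 3.92 CPM.

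DTX3L is a ubiquitin ligase that works in a complex with the ADP-ribosyltransferase PARP9. It fell with the block. The gene lies on chromosome 33 (26309779 to 26317453, plus strand) and had 81.0, 78.8, 63.1 and 59.5 CPM in control wells and 72.4, 63.6, 42.1 and 50.5 CPM in stretch wells. Each stretch well was below the control well of its number, while stretch replicates 1 and 2 were above control replicate 3. The log2 change was -0.30 ± 0.17 unblocked and -0.32 ± 0.06 blocked (edgeR, adjusted p = 0.999 and 0.0208). With 1 well left out, the unblocked change of DTX3L ranged from -0.44 to -0.18, with -0.18 when stretch replicate 3 was omitted. In edgeR's blocked fit it no longer passed when pair 1, 2 or 4 was left out (adjusted p = 0.0580, 0.0915 and 0.0823), and it passed without pair 3 (0.0189).

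The first bases of DTX3L overlap PARP9, which is read from the opposite strand (26276577 to 26310190). PARP9 had 82.6 ± 15.9 CPM in control wells and 74.4 ± 18.6 CPM in stretch wells, and its log2 change of -0.16 with the block missed the threshold (edgeR, adjusted p = 0.437). The 95% intervals of this gene pair, -0.45 to -0.19 for DTX3L and -0.30 to -0.02 for PARP9, overlapped. PARP14, a related gene nearby, was lower in 4 of 4 pairs with a log2 change of -0.14 (adjusted p = 0.338). SP100, a nuclear body protein, had a log2 change of 0.07 with an interval of -0.05 to 0.20.

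The antigen processing genes PSMB9 and TAP1 make and carry peptides for MHC class I. Among the role groups of the listed genes they had the smallest median change, -0.01 without the block. Their log2 changes with the block were -0.02 and -2.96e-04, and the 95% intervals, -0.16 to 0.11 and -0.11 to 0.11, did not overlap that of IFIT2.

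**Figure D5:**
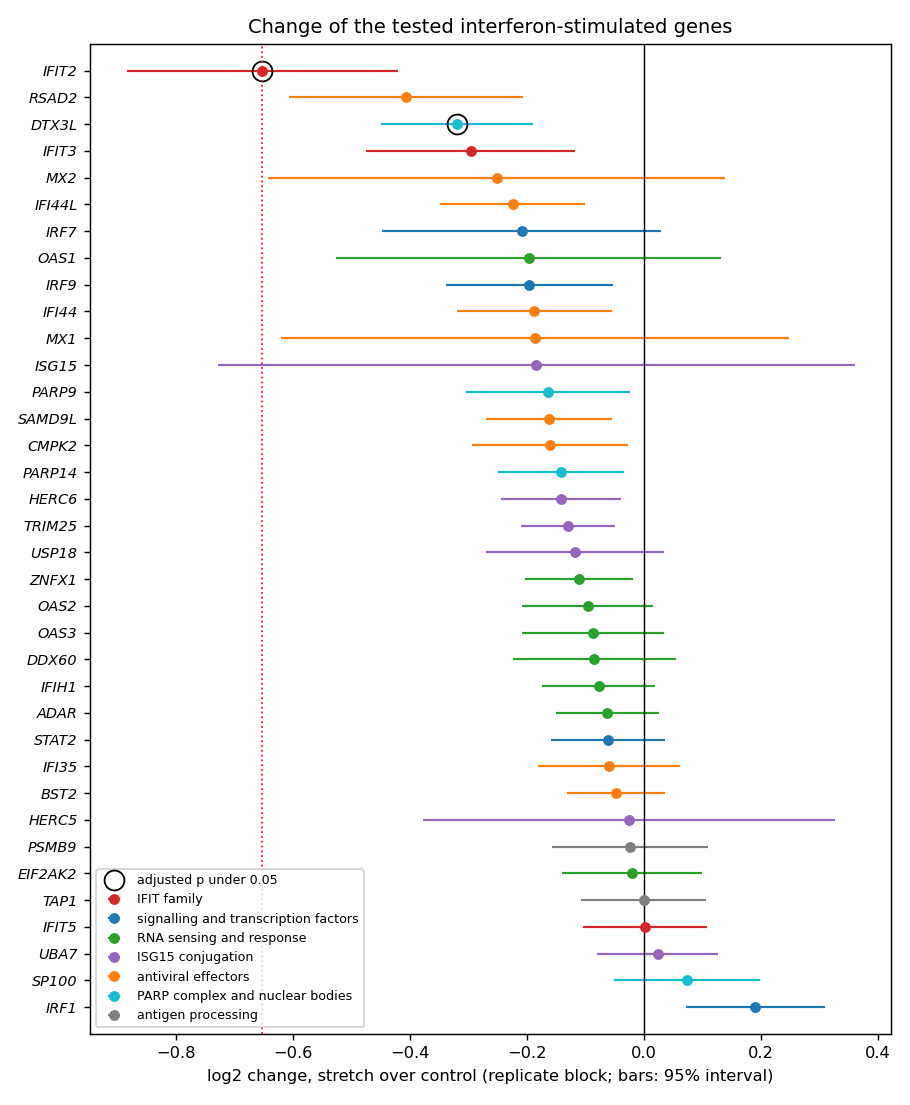
Log2 change of stretch over control for the 36 tested genes in the edgeR fit with the replicate block (points: estimate; bars: 95% interval; colours: role; circles: adjusted p under 0.05; dotted line: estimate for IFIT2). Estimates run from -0.65 for IFIT2 to 0.19 for IRF1, and IFIT2 and DTX3L are circled.

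The 95% interval of IFIT2 was -0.88 to -0.42 with the block and -0.94 to -0.37 without it. With the block it overlapped the intervals of 8 of the other 35 tested genes, IFIT3, IRF7, OAS1, ISG15, MX1, MX2, RSAD2 and DTX3L, and the remaining 27 intervals lay above it. Without the block it overlapped those of 17 and 18 lay above it. No test of these differences between genes was made. The median log2 change of the 35 genes was -0.11 without the block and -0.12 with it. IFIT2 was the gene the list was built around, so its place at the end of the order is a description.

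Other genes of the interferon pathway were read from context lists of 100 symbols, of which 85 had a row and 69 were tested. Of the 69, 35 were further interferon-stimulated genes and the rest were interferons, receptors, signalling genes, sensors and regulators. With the block 1 of the 69 passed, where 0.7% of all genes did, and without it 0 passed. The gene that passed, RTP4, was among the 35. In the fit without the block, 50 of 69 had a log2 change below 0, with a median of -0.02, and 7 of 69 were lower in 4 of 4 pairs and 4 were higher in 4 of 4, beside 7.84% and 8.45% of all genes. The receptor genes IFNAR1 and IFNAR2 had log2 changes of -0.0037 and -0.05 without the block, and the sign of each turned with the wells left out.

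Receptors and interferons (8 tested), kinases and transcription factors (10), nucleic acid sensors (7) and negative regulators (9) held 0 genes that passed in either fit. The smallest unadjusted p of the receptor list without the block belonged to IFNLR1, the type III receptor, at 7.25 ± 1.40 and 6.56 ± 1.02 CPM. In the factor list it was BATF2 at 4.98 ± 0.188 and 4.20 ± 0.510 CPM, and in the sensor list the adaptor TICAM1 at 16.9 ± 2.72 and 18.3 ± 1.76 CPM. TRIM21, an antibody receptor and ubiquitin ligase, had the smallest of the regulators. Its control wells had 12.1, 11.2, 9.95 and 11.2 CPM and its stretch wells 8.79, 9.12, 8.88 and 8.97 CPM. Every stretch well of TRIM21 was below every control well, which held for 1.24% of all genes. Its log2 change of -0.31 did not pass in either fit (edgeR, adjusted p = 0.930 without the block and 0.197 with it). SOCS3, a feedback inhibitor of cytokine receptors, is given here after its values were seen, as it had the highest log2 change of the context genes. It had 18, 37, 33 and 33 counts in control wells and 35, 38, 56 and 60 counts in stretch wells. In CPM every stretch well of SOCS3 was above every control well, which held for 1.30% of all genes. Its log2 change of 0.67 ± 0.25 unblocked and 0.68 ± 0.24 blocked did not pass in either fit (edgeR, adjusted p = 0.999 and 0.343).

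Of 35 further interferon-stimulated genes tested, 27 had a log2 change below 0 without the block, against 51.8% of all genes, with a median of -0.04. Of the 35, 4 were lower in 4 of 4 pairs, where 7.84% of all genes were. PML, among these 4, had every stretch well below every control well, which held for 1.24% of all genes. It did not pass in either fit (edgeR, adjusted p = 0.999 without the block and 0.325 with it). RTP4, an interferon-induced chaperone of receptor transport, fell with the block. The gene lies on chromosome 34 (20011117 to 20125445) with 20300 bases of exon in the table, and had 35.3, 41.3, 30.2 and 31.8 CPM in control wells and 28.5, 31.0, 18.3 and 24.2 CPM in stretch wells. Each pair was lower, and stretch replicate 2 was within the range of the controls. The log2 change was -0.44 ± 0.16 unblocked and -0.45 ± 0.07 blocked (edgeR, adjusted p = 0.999 and 0.00230). RTP4 passed with the block whichever pair was left out, with adjusted p from 8.54e-04 to 0.0242.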

How the data were processed

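Per the submitters' processing notes, reads were handled with FastQC 0.11.8, Trim Galore 0.6.5, STAR 2.7.3a, Subread and featureCounts. The deposited values are raw counts per gene, whole numbers listed with the exons of each gene per the file headers; the genome build, strand setting and treatment of multi-mapping reads are not given in the sources used here. Of the gene symbols, 37291 matched the RefSeq table of the assembly UU_Cfam_GSD_1.0, all with identical start and end, and coordinates are those of the file. No sequences were used here.

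Counts of the 4 control and 4 stretch wells were tested with edgeR 4.0.16 in R 4.3.3 (TMM, filterByExpr with a minimum count of 10 and a minimum total of 15, glmQLFit with robust estimation, glmQLFTest) across all genes, with Benjamini-Hochberg adjustment at 0.05. SE values are the absolute log2 change divided by the square root of F, and the 95% intervals use the t quantile of the fit. The test was checked on simulated data. The first fit had no block. Deviations of same-numbered wells from their group means correlated at 0.202 to 0.484 over the 4 numbers taken from the titles, so blocked values are given beside it. Wells of different numbers were not compared in this way, and the labels do not say what equal numbers share. The fits were repeated with DESeq2 1.42.0, limma-voom (limma 3.58.1), other scaling and count filters, the replicate block, a block with 2 levels (numbers 1 and 2 against 3 and 4), and omission of wells or pairs. Other scaling with the block and pair counts without each number were added after seeing the data.

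The genes, the context lists and the tests were chosen with earlier results of these data known. Genes given well by well were those past the threshold in either fit, all tested IFIT genes, genes without overlap between groups, the 4 with the smallest unadjusted p without the block and the 4 with the highest length-scaled level. Context genes named were those past the threshold, IFNAR1, IFNAR2 and the smallest p of each list; 1 further gene is not reported here. Plots were made in Python 3.11.15 with matplotlib 3.10.9. Reads shared by related genes (IFIT, OAS and MX families) may have been split or dropped in counting, so their levels are uncertain.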

Additional observations from a re-analysis of the deposited data

Results flagged for a closer look

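The outlying well of each group of 4 was examined with Dixon's test in 86 groups, and in 1 of them a well lay far from the other 3. OAS1 had 96.7 CPM in control replicate 4, against 116 to 118 CPM in the other control wells. At the 95% level chance marks about 1 in 20 groups, or 4.3 of the 86.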

How the results depend on the processing

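Without the block, 0 genes passed in edgeR with TMM, with each of the other scalings, with at least 10 counts in every well and in limma-voom (550 to 622 genes at an unadjusted p under 0.05). By contrast, 40 passed in DESeq2 and 11 without a count filter. Of the listed genes DESeq2 called 1, IFIT2 (adjusted p = 0.00191). With the replicate block the numbers for the whole table, the listed genes and the context genes were 102, 2 and 1. They were 145, 2 and 1 in DESeq2, 448, 12 and 1 without a count filter, 58, 2 and 1 for the block with 2 levels, 105, 2 and 1 with DESeq2 size factors, 111, 2 and 1 with library size only, and 112, 3 and 1 with upper-quartile factors. In DESeq2 with the block the listed genes were RSAD2 and DTX3L, and DESeq2 gave IFIT2 no adjusted p. Leaving out 1 well without the block gave 0 to 12 genes in all (12 without control replicate 3, 3 without stretch replicate 1), 0 listed and 0 context genes. Leaving out 1 replicate number with the block gave 43, 67, 186 and 74 genes in all for numbers 1 to 4, 0 to 3 listed genes and 1 context gene. In these omissions 28 to 33 of the 36 listed genes were lower without the block and 29 to 32 with it, with medians from -0.18 to -0.06 and from -0.15 to -0.05.

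The direction of IFIT2, DTX3L, RSAD2, IFIT3, HERC6, SAMD9L, IRF1 and RTP4 held in every fit that was run, apart from DESeq2 with the block for IFIT2, where no adjusted p was given and its direction is not counted. Values near 0 changed sign. IFNAR1 was at 0.0015 with upper-quartile factors, 7.4e-04 with library size only, 3.1e-04 with at least 10 counts in every well, and with the block 7.6e-04 with library size only and 0.0014 with upper-quartile factors. When 1 well was left out, log2 changes ranged from -0.030 to 0.054 for IFIT5, -0.098 to 0.029 for BST2, -0.032 to 0.033 for IFNAR1 and -0.12 to 0.079 for IFNAR2. With the block and 1 number left out IFIT5 was at -8.2e-04 without number 2 and -0.041 without number 4, IFNAR2 at 0.050 without number 1 and 0.012 without number 2, and IFNAR1 at 0.0041, 0.0015 and 0.0027 without number 1, 2 and 3. Low counts limit HERC5, MX2 and IFIT2 most, with 78 to 165, 150 to 297 and 147 to 326 counts per well.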
